A study of Mus musculus with 8 samples.

Results

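The genes described here are 10 members of the Notch pathway: the receptors Notch1, Notch2 and Notch3, the ligands Jag1, Jag2 and Dll1, and the transcription factors Hes1, Hes6, Hey1 and Heyl. They were chosen by name, as the rows whose Ensembl identifier carries one of these symbols, and all 10 were found among the 53647 genes counted. All 10 had enough counts to be tested, with 15603 genes tested in all. RNA was sequenced from primary myotubes, which are the multinucleated muscle cells that form in culture when isolated muscle precursors (myoblasts) stop dividing and fuse. The myoblasts came from limb muscle of wild-type (WT) mouse pups aged 2 to 3 days and differentiated in medium with 5% horse serum. Differentiated cells received 1 of 3 cytokines: interleukin 6 (IL6), oncostatin M (OSM) or LIF, the leukaemia inhibitory factor. These are related proteins whose receptors share the subunit gp130, and each was given at 250 ng/ml for 48 h. The Control group is labelled with no agent, and cells of every group were collected 72 h after differentiation. Each group had 2 libraries, and the labels do not say whether these came from separate cultures or animals, so p-values measure only the spread between these libraries, which may be technical.

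Notch receptors sit in the cell membrane and are activated by Jagged or Delta-like ligands on a neighbouring cell. Binding leads to cleavage of the receptor, and its released intracellular part enters the nucleus, joins the DNA-binding protein RBPJ and switches on genes such as those of the Hes and Hey families of basic helix-loop-helix repressors. In skeletal muscle the pathway is known for keeping precursor cells undifferentiated and for maintaining the resident stem cells, whereas Hes6, an antagonist of Hes1, accompanies muscle differentiation.

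The 8 libraries held 29482077 to 30025471 gene counts each, and 21358 to 21831 genes had at least 1 count. Socs3, a feedback inhibitor induced by these cytokines, rose with OSM by 1.37 and with LIF by 1.47 on the log2 scale (edgeR adjusted p = 1.38e-08 and 3.15e-08), while its log2 difference with IL6 was 0.28 (adjusted p = 0.514). Here CPM are counts scaled to a common library size. Myotube markers were abundant, with all 8 tested and summed levels of 22039 to 22795 CPM in Control and 18786 to 21451 CPM across the treated libraries. Their log2 differences from Control were all negative, from -0.25 to -0.12 with OSM, -0.24 to -0.06 with LIF and -0.42 to -0.07 with IL6. Of the 8 only Myh8 was called, with OSM (-0.20, edgeR adjusted p = 0.0447) and with LIF (-0.24, adjusted p = 0.0385). All comparisons with Control use the same 2 Control libraries, so their values are given side by side and are not independent of each other. In a bulk sample fewer cells of a type and less RNA per cell cannot be told apart.

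Among the 10 genes, Jag1 fell and Notch2 and Hey1 rose with OSM, so 3 of 10 passed an adjusted p of 0.05 in edgeR's quasi-likelihood test. The share of all tested genes called in that comparison was 21.4%, 10.8% higher and 10.6% lower, so a count of 3 is close to what the whole table shows. With LIF 0 of 10 were called, against 7.66% of all genes (4.2% higher and 3.46% lower), and with IL6 0 of 10, against 0% of all genes. The log2 differences of the 10 had a median of -0.14 with OSM, -0.10 with LIF and -0.06 with IL6, beside medians over all genes of -0.003, -0.008 and 0.0006. A joint test of the 3 cytokines against Control called Jag1 (adjusted p = 0.000216), Notch2 (adjusted p = 0.00169) and Hey1 (adjusted p = 0.0194), with 17.4% of all genes called.

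**Figure D1:**
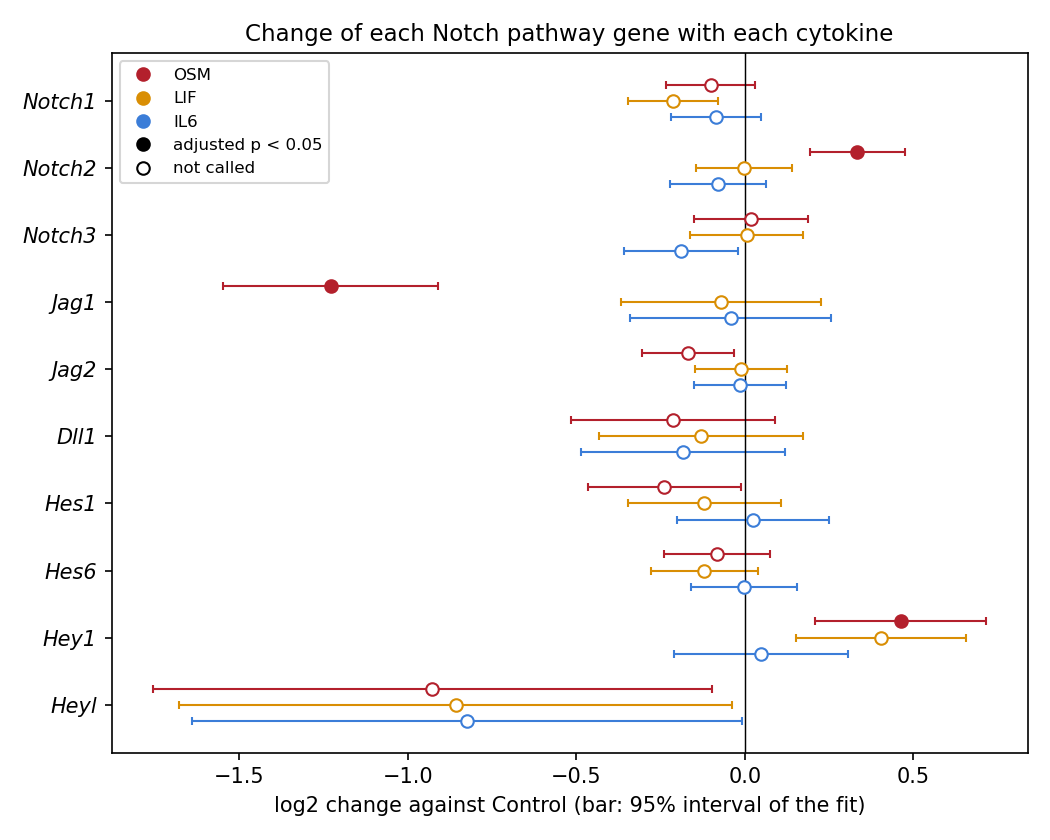
Log2 difference from Control (x axis) of each of the 10 genes (y axis) with OSM, LIF and IL6, with the 95% interval of the fit as a bar and filled points for an adjusted p under 0.05. The 3 filled points all belong to OSM, with Jag1 at -1.23, Notch2 at 0.33 and Hey1 at 0.46.

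The change with the greatest size among the 3 called genes was that of Jag1, which encodes the ligand Jagged1. Its counts were 640 and 736 in Control, 677 and 680 with IL6, 694 and 630 with LIF, and 234 and 354 with OSM. As levels these were 22.0 and 24.7 CPM in Control, 22.4 and 22.9 CPM with IL6, 23.3 and 21.1 CPM with LIF, and 8.0 and 11.9 CPM with OSM. Both OSM libraries lay below the other 6, which spanned a narrow range. Jag1 fell with OSM by 1.23 on the log2 scale (SE 0.147, 95% interval -1.55 to -0.91, edgeR adjusted p = 7.04e-05), a 2.35-fold lower level. It was also lower with OSM than with LIF, by a log2 difference of -1.16 (SE 0.147, adjusted p = 0.000335), and lower than with IL6, by -1.19 (SE 0.147, adjusted p = 0.000127). The LIF libraries differed from Control in Jag1 by -0.07 (SE 0.137, adjusted p = 0.840) and those of IL6 by -0.04 (adjusted p = 0.992) on the log2 scale. The 2 OSM libraries differed from each other in size: the log2 change was -0.97 without OSM replicate 1 and -1.54 without OSM replicate 2, and the call held in both cases (adjusted p = 0.000715 and 3.2e-05).

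The 250 bases before the start of Jag1 are shown because it carried the greatest of the called changes, and those before Notch2 because it rose in the same libraries. Both were read from a RefSeq promoter table of build GRCm38.p6, and the strand is that of the gene. In it 7 of the 10 genes were found, but not Hes1, Hey1 or Heyl, so these were not searched. The letters searched were the RBPJ motif TGGGAA, the N box CACNAG bound by Hes proteins and the STAT motif TTCNNNGAA, each on both strands, and a match is in capitals. For Jag1 the stretch is chr2:137116521-137116770 on the minus strand, with 57.2% G or C, and none of the 3 motifs was found in it. For Notch2 it is chr3:98013288-98013537 on the plus strand, with 72.0% G or C, and it holds 1 N box, CTAGTG, which is the motif read on the opposite strand, at 247 to 242 bases before the start.
Jag1: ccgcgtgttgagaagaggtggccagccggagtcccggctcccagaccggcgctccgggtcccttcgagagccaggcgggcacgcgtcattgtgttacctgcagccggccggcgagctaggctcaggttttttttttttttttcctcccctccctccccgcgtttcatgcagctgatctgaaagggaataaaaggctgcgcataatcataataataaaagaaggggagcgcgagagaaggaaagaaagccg
Notch2: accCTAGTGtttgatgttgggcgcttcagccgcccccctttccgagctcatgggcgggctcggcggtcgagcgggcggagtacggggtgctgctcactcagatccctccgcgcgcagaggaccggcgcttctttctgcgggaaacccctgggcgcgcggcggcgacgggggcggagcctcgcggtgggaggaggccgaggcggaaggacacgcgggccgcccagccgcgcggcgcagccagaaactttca
Over 32851 promoters of this length in the table, 36.7% held an N box, 21.6% the RBPJ letters and 7.02% the STAT letters. The absence of letters from a window of 250 bases says nothing about binding elsewhere.

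The other ligands moved less than Jag1. Jag2, the second Jagged ligand, was at 103.9 and 101.5 CPM in Control, 102.0 and 101.1 CPM with IL6, 102.9 and 100.6 CPM with LIF, and 95.7 and 86.8 CPM with OSM. Both OSM libraries were below the other 6, but the log2 difference from Control of -0.17 (SE 0.063) did not pass the test (adjusted p = 0.0766). It passed without IL6 replicate 2 (adjusted p = 0.0493), and the difference from LIF of -0.16 had an adjusted p of 0.172, or 0.0407 in the fit of these 2 groups alone. Dll1, a Delta-like ligand used by muscle precursors, was at 27.6 and 31.5 CPM in Control, 21.8 and 30.2 CPM with IL6, 25.3 and 28.7 CPM with LIF, and 24.2 and 26.8 CPM with OSM. The OSM libraries did not overlap Control, whereas IL6 and LIF did, and the log2 differences were -0.21 with OSM (SE 0.138, adjusted p = 0.319) and -0.13 with LIF (adjusted p = 0.674). For Dll1, 20.5% of the exon bases overlap the antisense gene A930024N18Rik. The strand setting of the counting was not given in the sources used here, so how reads in that overlap were assigned is not known.

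Of the receptors, Notch2 rose with OSM. It was at 74.1 and 74.3 CPM in Control, 72.0 and 68.4 CPM with IL6, 71.5 and 76.7 CPM with LIF, and 96.5 and 90.5 CPM with OSM. Both OSM libraries stood above the other 6, and LIF overlapped Control. The log2 change with OSM against Control was 0.33 (SE 0.065, edgeR adjusted p = 0.00253), a 1.26-fold higher level, and the call held without each of the 8 libraries in turn. Notch2 was also higher with OSM than with IL6, by a log2 difference of 0.41 (SE 0.066, adjusted p = 0.000683), and than with LIF, by 0.34 (SE 0.065, adjusted p = 0.00556). The difference from LIF did not pass without LIF replicate 1 (adjusted p = 0.140) or without OSM replicate 1 (adjusted p = 0.109). With IL6 the log2 difference from Control was -0.08 (adjusted p = 0.95).

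Notch1, the receptor most often studied in muscle stem cells, was at 84.0 and 86.7 CPM in Control, 78.4 and 82.5 CPM with IL6, 72.5 and 74.7 CPM with LIF, and 80.9 and 78.1 CPM with OSM. Every treated library lay below both Control libraries, and the LIF libraries were the lowest. None of the log2 differences from Control passed the test. The LIF value was -0.21 (SE 0.062, adjusted p = 0.0527), that of OSM -0.10 (SE 0.061, adjusted p = 0.279) and that of IL6 -0.09 (adjusted p = 0.947). The LIF difference passed without IL6 replicate 1 (adjusted p = 0.0265) or IL6 replicate 2 (adjusted p = 0.0243). Between OSM and LIF the log2 difference of Notch1 was 0.11 (adjusted p = 0.347).

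Notch3, a receptor of muscle precursors and of mural cells around vessels, was at 72.1 and 76.2 CPM in Control, 59.4 and 70.6 CPM with IL6, 74.3 and 74.6 CPM with LIF, and 76.4 and 73.9 CPM with OSM. OSM and LIF libraries overlapped Control, and the lowest value was that of IL6 replicate 1. The log2 difference from Control was 0.02 for OSM (SE 0.078, adjusted p = 0.902) and -0.19 for IL6 (SE 0.078, unadjusted p = 0.0303, adjusted p = 0.943). Leaving out IL6 replicate 2, which keeps the lower of the IL6 libraries, gave -0.32 for IL6 against Control (adjusted p = 0.0431), 0.34 for OSM against IL6 (adjusted p = 0.00466) and 0.33 for LIF against IL6 (adjusted p = 0.0189). With all libraries the last 2 were 0.21 (adjusted p = 0.0949) and 0.20 (adjusted p = 0.254). Exons of other genes overlap 9.76% of the Notch1 exon bases and 6.03% of those of Notch3, on the opposite strand, and 5.02% of those of Notch2 on the same strand.

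**Figure D2:**
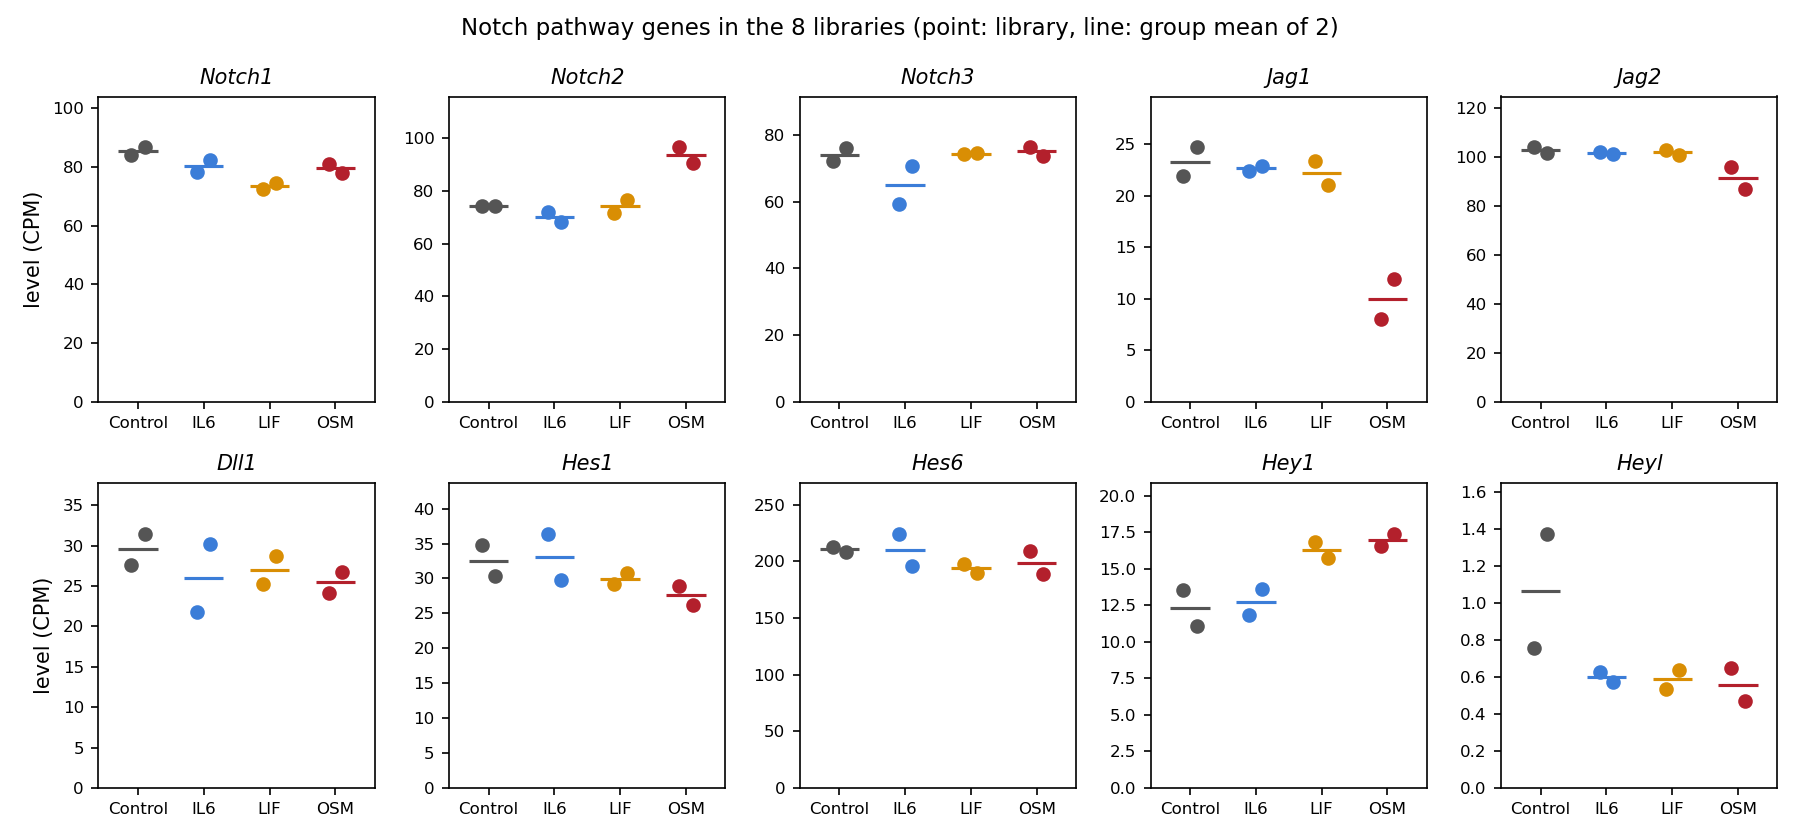
Level in CPM (y axis, from 0, with its own scale for each gene) of the 10 genes in the 8 libraries, by group, with the group mean as a line. Jag1 with OSM lies at 8.0 and 11.9 CPM, below the other 6 libraries, and Notch2 with OSM at 96.5 and 90.5 CPM, above them.

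Among the transcription factors, Hey1 rose with OSM. Hey1, a repressor induced by Notch that acts in muscle stem cells, was at 13.6 and 11.1 CPM in Control, 11.9 and 13.6 CPM with IL6, 16.9 and 15.8 CPM with LIF, and 16.6 and 17.4 CPM with OSM. The 4 LIF and OSM libraries lay above the 4 Control and IL6 libraries, with no overlap. The log2 change was 0.46 with OSM (SE 0.117, edgeR adjusted p = 0.0127), a 1.38-fold higher level, and the difference was 0.40 with LIF (SE 0.117, adjusted p = 0.0543). Between OSM and LIF it was 0.06 (95% interval -0.19 to 0.31, adjusted p = 0.843), so no difference between these cytokines was shown and one within that interval could not be detected. Against IL6 the value was 0.41 with OSM (SE 0.117, adjusted p = 0.0279) and 0.36 with LIF (adjusted p = 0.144).

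The calls of Hey1 were sensitive to single libraries. The rise with OSM against Control did not pass without Control replicate 2 (log2 difference 0.33, adjusted p = 0.0961), OSM replicate 1 (adjusted p = 0.0571) or OSM replicate 2 (adjusted p = 0.0932). The difference of LIF from Control passed without Control replicate 1 (adjusted p = 0.0257), IL6 replicate 1 (adjusted p = 0.0248) or IL6 replicate 2 (adjusted p = 0.0255). The difference of OSM from IL6 did not pass without IL6 replicate 1 (adjusted p = 0.123), LIF replicate 1 (adjusted p = 0.0510), LIF replicate 2 (adjusted p = 0.0509), OSM replicate 1 (adjusted p = 0.106) or OSM replicate 2 (adjusted p = 0.163).

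Hes1, the classical Notch target, was at 34.8 and 30.3 CPM in Control, 36.4 and 29.7 CPM with IL6, 29.2 and 30.7 CPM with LIF, and 28.9 and 26.2 CPM with OSM. The OSM libraries were the lowest of the 8, while LIF and IL6 overlapped Control. The log2 difference of OSM was -0.24 from Control (SE 0.105, adjusted p = 0.131), -0.12 from LIF (adjusted p = 0.603) and -0.26 from IL6 (adjusted p = 0.115). The last of these passed without IL6 replicate 2, at -0.40 (adjusted p = 0.0140), and LIF differed from Control by -0.12 (adjusted p = 0.592).

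Hes6 was at 212.9 and 208.5 CPM in Control, 224.5 and 195.9 CPM with IL6, 197.8 and 189.8 CPM with LIF, and 208.9 and 188.8 CPM with OSM. LIF libraries lay below Control and the other groups overlapped it. The log2 differences were -0.08 with OSM (SE 0.073, adjusted p = 0.471) and -0.12 with LIF (adjusted p = 0.404). Heyl, a relative of Hey1, was close to the limit of the depth, with 14 to 41 counts per library. Its level was 0.75 and 1.38 CPM in Control, 0.63 and 0.57 CPM with IL6, 0.54 and 0.64 CPM with LIF, and 0.65 and 0.47 CPM with OSM. The Control libraries were the highest but differed widely from each other, and none of the log2 differences passed: OSM was at -0.93 (SE 0.384, adjusted p = 0.109), LIF at -0.86 (adjusted p = 0.222) and IL6 at -0.82 (adjusted p = 0.943).

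Groups that do not overlap were common over the whole table with only 2 libraries each. With OSM 8 of the 10 genes did not overlap Control, all but Notch3 and Hes6, against 60.9% of all tested genes. With LIF 4 of 10 did not overlap, against 52% of all genes, and with IL6 4 of 10, against 28.2%. For LIF, 3 of the 10 genes (Notch1, Hey1 and Heyl) had an unadjusted p under 0.05 in edgeR, and for IL6 2 of the 10 (Notch3 and Heyl). DESeq2 called 0 in each, and its share over all genes with LIF is not given here. Over all tested genes the share with an unadjusted p under 0.05 was 20.5% with LIF and 5.10% with IL6. The log2 differences of the 10 genes with IL6 ran from -0.82 to 0.05. Over all genes 795 had an unadjusted p under 0.05 with IL6 the lowest adjusted p was 0.103, and DESeq2 called 17. Without IL6 replicate 2 edgeR called 221.

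Between the cytokines, OSM and LIF differed in 2 of the 10 genes, Notch2 and Jag1, against 8.04% of all genes (4.01% higher with OSM and 4.04% lower), and 5 of 10 did not overlap, against 56.6%. OSM and IL6 differed in 3 of 10, Notch2, Hey1 and Jag1, against 15.5% of all genes (8.02% higher with OSM and 7.52% lower), and 6 of 10 did not overlap, against 54.3%. LIF and IL6 differed in 0 of 10, against 2.78% of all genes (1.76% higher with LIF and 1.02% lower). There were 2 of 10 (Notch3 and Hey1) at an unadjusted p under 0.05 in edgeR, beside 14.7% of all genes. DESeq2 called 0 of 10 there, and its share over all genes is not given here. Of the 10, 3 did not overlap, against 43.5%.

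Levels of different genes were compared as CPM per kilobase of exon, with exon lengths from GENCODE M21. In Control, Hes6 was the highest at 116.5 ± 1.73 CPM per kb (SD, n = 2). Hes1 followed at 16.0 ± 1.54 and Jag2 at 14.7 ± 0.24 CPM per kb, which overlapped each other. The receptors lay below them, with Notch3 at 9.17 ± 0.36, Notch2 at 6.88 ± 0.01 and Notch1 at 6.0 ± 0.13 CPM per kb. Dll1, at 7.0 ± 0.66 CPM per kb, overlapped Notch2. Jag1 at 4.01 ± 0.33 and Hey1 at 3.78 ± 0.53 CPM per kb overlapped each other, and Heyl was last at 0.21 ± 0.09 CPM per kb. With IL6 the order differed from Control in 2 neighbouring pairs, Notch2 with Dll1 and Hey1 with Jag1, and the members of each pair overlapped.

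With OSM, Jag1 came ninth of the 10 genes at 1.71 ± 0.47 CPM per kb, below Hey1 at 5.20 ± 0.19 CPM per kb without overlap, and Notch2 stood at 8.67 ± 0.39 CPM per kb, above Dll1 at 6.04 ± 0.43. With LIF, Hey1 at 5.00 ± 0.23 CPM per kb was likewise above Jag1 at 3.81 ± 0.27 CPM per kb without overlap, and overlapped Notch1 at 5.17 ± 0.11. Of the summed level of the 3 ligands, Jag1 made up 15.5 ± 0.85% in Control, 15.8 ± 0.62% with IL6, 15.4 ± 1.14% with LIF and 8.18 ± 2.26% with OSM (SD, n = 2). The summed ligand level was 25.7 ± 0.75 CPM per kb in Control and 20.9 ± 0.0031 with OSM, with Jag2 making up 57.3 ± 2.6% and 62.9 ± 4.34%. The small SD with OSM came from differences in opposite directions between its 2 libraries. There Jag2 was at 13.7 and 12.5, Jag1 at 1.37 and 2.04, and Dll1 at 5.73 and 6.35 CPM per kb. The difference between the sums was not tested. Of the summed level of the 3 receptors, Notch2 made up 31.2 ± 0.66% in Control, 32.3 ± 2.7% with IL6, 32.3 ± 0.89% with LIF and 36.8 ± 0.50% with OSM, while the sum was 22.0 ± 0.50 CPM per kb in Control and 23.5 ± 0.75 with OSM. Hes6 held 84.4% to 85.4% of the summed level of the 4 transcription factors as group means, so its share differed little between groups.

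**Figure D3:**
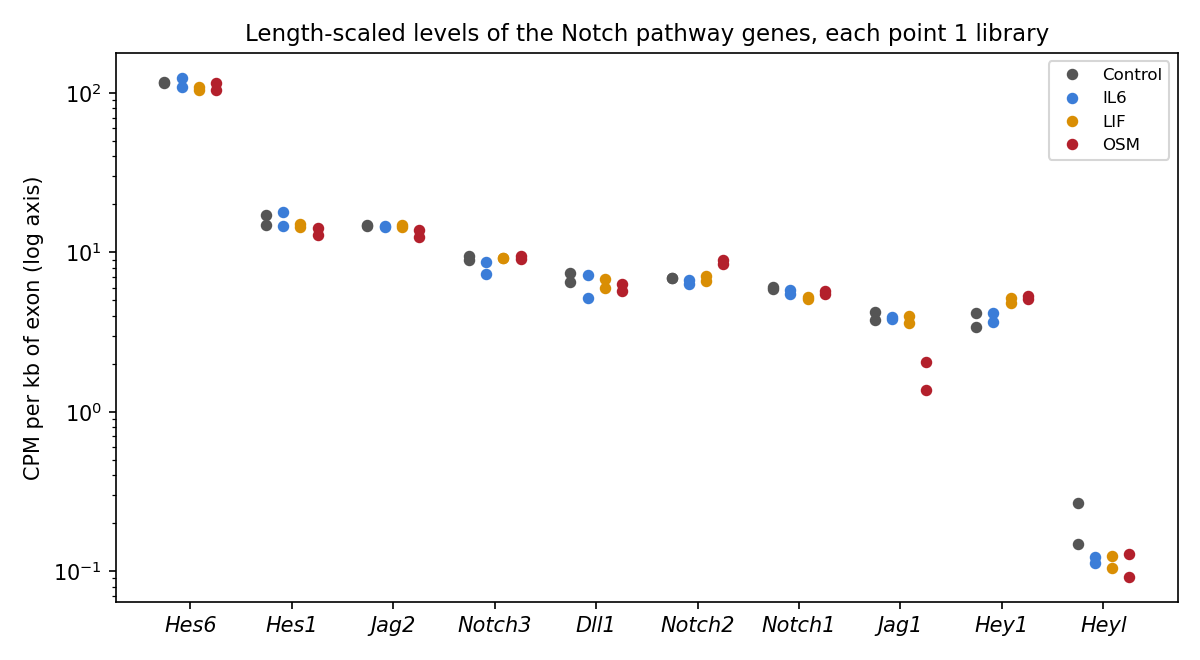
Level in CPM per kilobase of exon (y axis, log scale) of the 10 genes in order of their mean in Control (x axis), each point 1 library, coloured by group. Hes6 stands above 100 in each library, Heyl at the bottom, and Jag1 with OSM below every other library of Jag1, Hey1 and Notch1.

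Markers of other cells that these cultures could hold were measured in the same libraries, and their part in the changes of Jag1, Notch2 and Hey1 was not tested. All 7 markers of proliferating cells fell with OSM, with log2 changes from -2.02 to -1.30. Their summed level was 752 to 892 CPM in Control, 707 to 767 CPM with IL6, 549 to 595 CPM with LIF and 211 to 257 CPM with OSM. With LIF 6 of these 7 fell, and the log2 differences of the 7 ran from -0.64 to -0.43. Of 6 markers of undifferentiated myogenic cells, 4 were tested and 3 rose with OSM: Pax7 by 0.39, Myf5 by 0.82 and Sdc4 by 0.72 on the log2 scale. Vcam1, also tested, was not called with OSM (0.20, edgeR adjusted p = 0.476) or with LIF (-0.24, adjusted p = 0.518). With LIF only Sdc4 was called (0.43, adjusted p = 0.000871). The summed level of the 6 was 407 CPM in each Control library, 434 to 448 CPM with IL6, 508 to 520 CPM with LIF and 630 to 638 CPM with OSM. Most of this sum was Sdc4, with group means of 317 CPM in Control, 355 CPM with IL6, 426 CPM with LIF and 522 CPM with OSM. Calcr, which marks quiescent muscle stem cells, had 0 counts.

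Notch3 and Jag1 are also known from the mural cells and endothelium of blood vessels. Of 7 mural cell markers 4 were tested, with summed levels of 53.1 to 53.6 CPM in Control and 37.3 to 40.2 CPM with OSM. Rgs5 and Pdgfrb among them fell with OSM, by 1.92 and 0.97 on the log2 scale, and Cspg4 was not called (-0.75, adjusted p = 0.256). Abcc9, another mural marker, differed by 0.15 with OSM (adjusted p = 0.351) and rose with LIF by 0.37 (adjusted p = 0.0466). The defining markers Myh11 and Higd1b had at most 9 and 1 counts in a library, and Kcnj8 had 0 and 2 counts in Control and 11 and 8 with OSM. Of 8 endothelial markers 3 were tested, 0 were called in edgeR, and the sums were 4.87 to 5.44 CPM in Control and 5.88 to 6.21 CPM with OSM, with Emcn at 0 counts in each library. The sums of the 8 fibroblast markers, 5 of them tested, were 212 to 345 CPM in Control and 104 to 120 CPM with OSM, with Lum at 0 counts. Col1a1, the most abundant of them, was at 239 CPM in Control and 78.4 CPM with OSM as group means and was not called (adjusted p = 0.0858). Cd34 fell with OSM by 0.76 on the log2 scale (adjusted p = 0.000449), Pdgfra rose by 0.53 (adjusted p = 0.0193), and Dcn differed by 0.17 (adjusted p = 0.678). The 7 macrophage markers, 2 of them tested, summed to 2.68 to 2.92 CPM in Control and 5.13 to 5.44 CPM with OSM, where Cd68 rose by 1.03 (adjusted p = 0.00186). The 6 Schwann cell markers, 3 of them tested, summed to 5.42 to 6.25 CPM in Control and 7.28 to 8.18 CPM with OSM, where Mbp rose by 0.80 (adjusted p = 0.0132).

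The genes nearest to each of the 3 called members were searched among 10745 tested protein-coding genes, by the mean absolute difference of log2 CPM over the 8 libraries after centring each gene on its own mean. Nearest to Jag1 were Suv39h2 at 0.0688, Cenpn at 0.0930 and Ercc6l at 0.0949, beside a median of 0.456 over all genes searched. Nearest to Notch2 were Zyx at 0.0320, Tyk2 at 0.0345 and Abl1 at 0.0354, beside a median of 0.162. Nearest to Hey1 were Htra1 at 0.0389, Pvr at 0.0550 and Znrf2 at 0.0586, beside a median of 0.216. All the libraries are shared by these genes, so the distances describe likeness in these 8 libraries only.

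**Figure D4:**
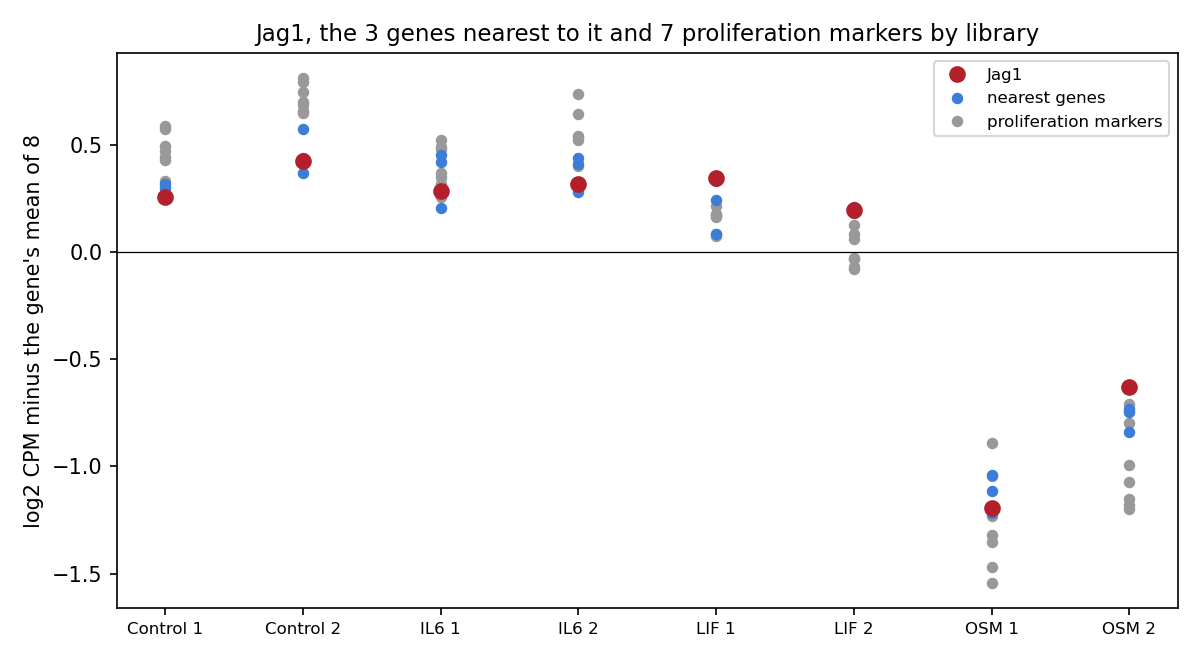
Log2 CPM of Jag1, of the 3 genes nearest to it and of the 7 proliferation markers in each library (x axis), as the difference from each gene's own mean of the 8 libraries (y axis). In both OSM libraries every gene shown lies below 0, and Jag1 lies at -1.19 in OSM replicate 1 and -0.63 in OSM replicate 2. With LIF the fitted log2 differences from Control were -0.64 to -0.43 for the 7 markers and -0.07 for Jag1.

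The rest of the pathway was read from lists of 57 other genes, of which 50 had enough counts to be tested. With OSM 10 of the 50 were called, 6 higher and 4 lower, which is 20% against 21.4% of all genes, and their median log2 difference was 0.01. DESeq2 called 8 of the 50, and its share over all genes in that comparison is not given here. With LIF 5 of 50 were called, 2 higher and 3 lower (10% against 7.66% of all genes), and with IL6 0 were called by edgeR or DESeq2, with 1 at an unadjusted p under 0.05. Fewer of the 50 were called with OSM when either OSM library was left out, and fewer genes over the whole table were called too. With LIF the count was lower without either library of Control or LIF. Leaving out either LIF library also lowered the count over all genes. Beside the 10 genes, 1 of 4 receptors and ligands passed with OSM, 0 of 3 targets, 2 of 14 genes for receptor glycosylation and cleavage, 5 of 12 for ligand uptake and receptor turnover, and 2 of 17 for the nuclear complex and its corepressors.

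Among the genes that process the receptor, Furin, the protease that cuts Notch on its way to the cell surface, rose with OSM. Its level was 101.3 and 97.6 CPM in Control, 103.8 and 106.9 CPM with IL6, 123.9 and 128.0 CPM with LIF, and 192.7 and 178.4 CPM with OSM. The libraries of the 4 groups did not overlap, with OSM the highest. The log2 change of Furin was 0.90 with OSM (SE 0.0617, edgeR adjusted p = 2.84e-07) and 0.34 with LIF (adjusted p = 0.00436), and OSM exceeded LIF by 0.56 (adjusted p = 6.77e-05). The LIF call did not pass without LIF replicate 2 (adjusted p = 0.0850). Adam10, which makes the ligand-induced cut, rose with OSM by 0.30 (adjusted p = 0.00313) and with LIF by 0.29 (adjusted p = 0.00989) on the log2 scale. The Adam10 calls were lost without OSM replicate 2 for OSM (adjusted p = 0.0542), and without Control replicate 1 (adjusted p = 0.0649), LIF replicate 1 (adjusted p = 0.0913) or LIF replicate 2 (adjusted p = 0.130) for LIF.

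Of the ubiquitin ligases of the pathway, Neurl1b, which promotes ligand uptake, fell with both cytokines but was low throughout, with 6 to 61 counts per library. Its level was 1.68 and 2.05 CPM in Control, 1.03 and 1.45 CPM with IL6, 0.67 and 0.70 CPM with LIF, and 0.21 and 0.23 CPM with OSM. The log2 change of Neurl1b was -3.06 with OSM (SE 0.374, adjusted p = 5.74e-05) and -1.43 with LIF (adjusted p = 0.0110). The LIF call was lost without Control replicate 2 (adjusted p = 0.0690), LIF replicate 1 (adjusted p = 0.103) or LIF replicate 2 (adjusted p = 0.105). Of the Deltex family of ubiquitin ligases, Dtx4 rose with OSM by 0.55 (adjusted p = 0.00237) and Dtx3 by 0.35 (adjusted p = 0.00442), and these calls held without each library. Dtx2 passed at 0.37 (adjusted p = 0.0443) and lost its call with DESeq2 (adjusted p = 0.0789) and without either library of Control, LIF or OSM (adjusted p up to 0.317), and Dtx1, with 0 to 2 counts, was not tested.

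Other calls of the lists were smaller or rested on single libraries. Mib2, a ligase for Notch ligands, fell with OSM by 0.32 on the log2 scale (adjusted p = 0.0118), and the call was lost without Control replicate 1 (adjusted p = 0.0790), OSM replicate 1 (adjusted p = 0.104) or OSM replicate 2 (adjusted p = 0.0820). Dlk1, a noncanonical ligand, fell with OSM by 0.68 (adjusted p = 0.0156) and with LIF by 0.88 (adjusted p = 0.00893). Without Control replicate 2 the Dlk1 values were -0.35 with OSM (adjusted p = 0.195) and -0.55 with LIF (adjusted p = 0.0819), and leaving out either library of the treated group also ended each call. Fbxw7, which marks the active receptor for degradation, fell with LIF by 0.32 (adjusted p = 0.0329), a call lost without either library of Control or LIF (adjusted p up to 0.307). The coactivator Kat2b rose with OSM by 0.29 (adjusted p = 0.0203), a call lost without either library of Control or OSM (adjusted p up to 0.105). The corepressor Kdm1a passed at -0.20 (adjusted p = 0.0430) and was not called without Control replicate 2 or without either library of LIF or OSM (adjusted p up to 0.337). Its call was also lost with DESeq2 (adjusted p = 0.0711), without the filter on low counts (adjusted p = 0.0561) and in the fit of the 2 groups alone (adjusted p = 0.0536). Dtx2 and Kdm1a, the 2 OSM calls with the highest adjusted p, fall outside the rule for named genes and are named after their values were seen.

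**Figure D5:**
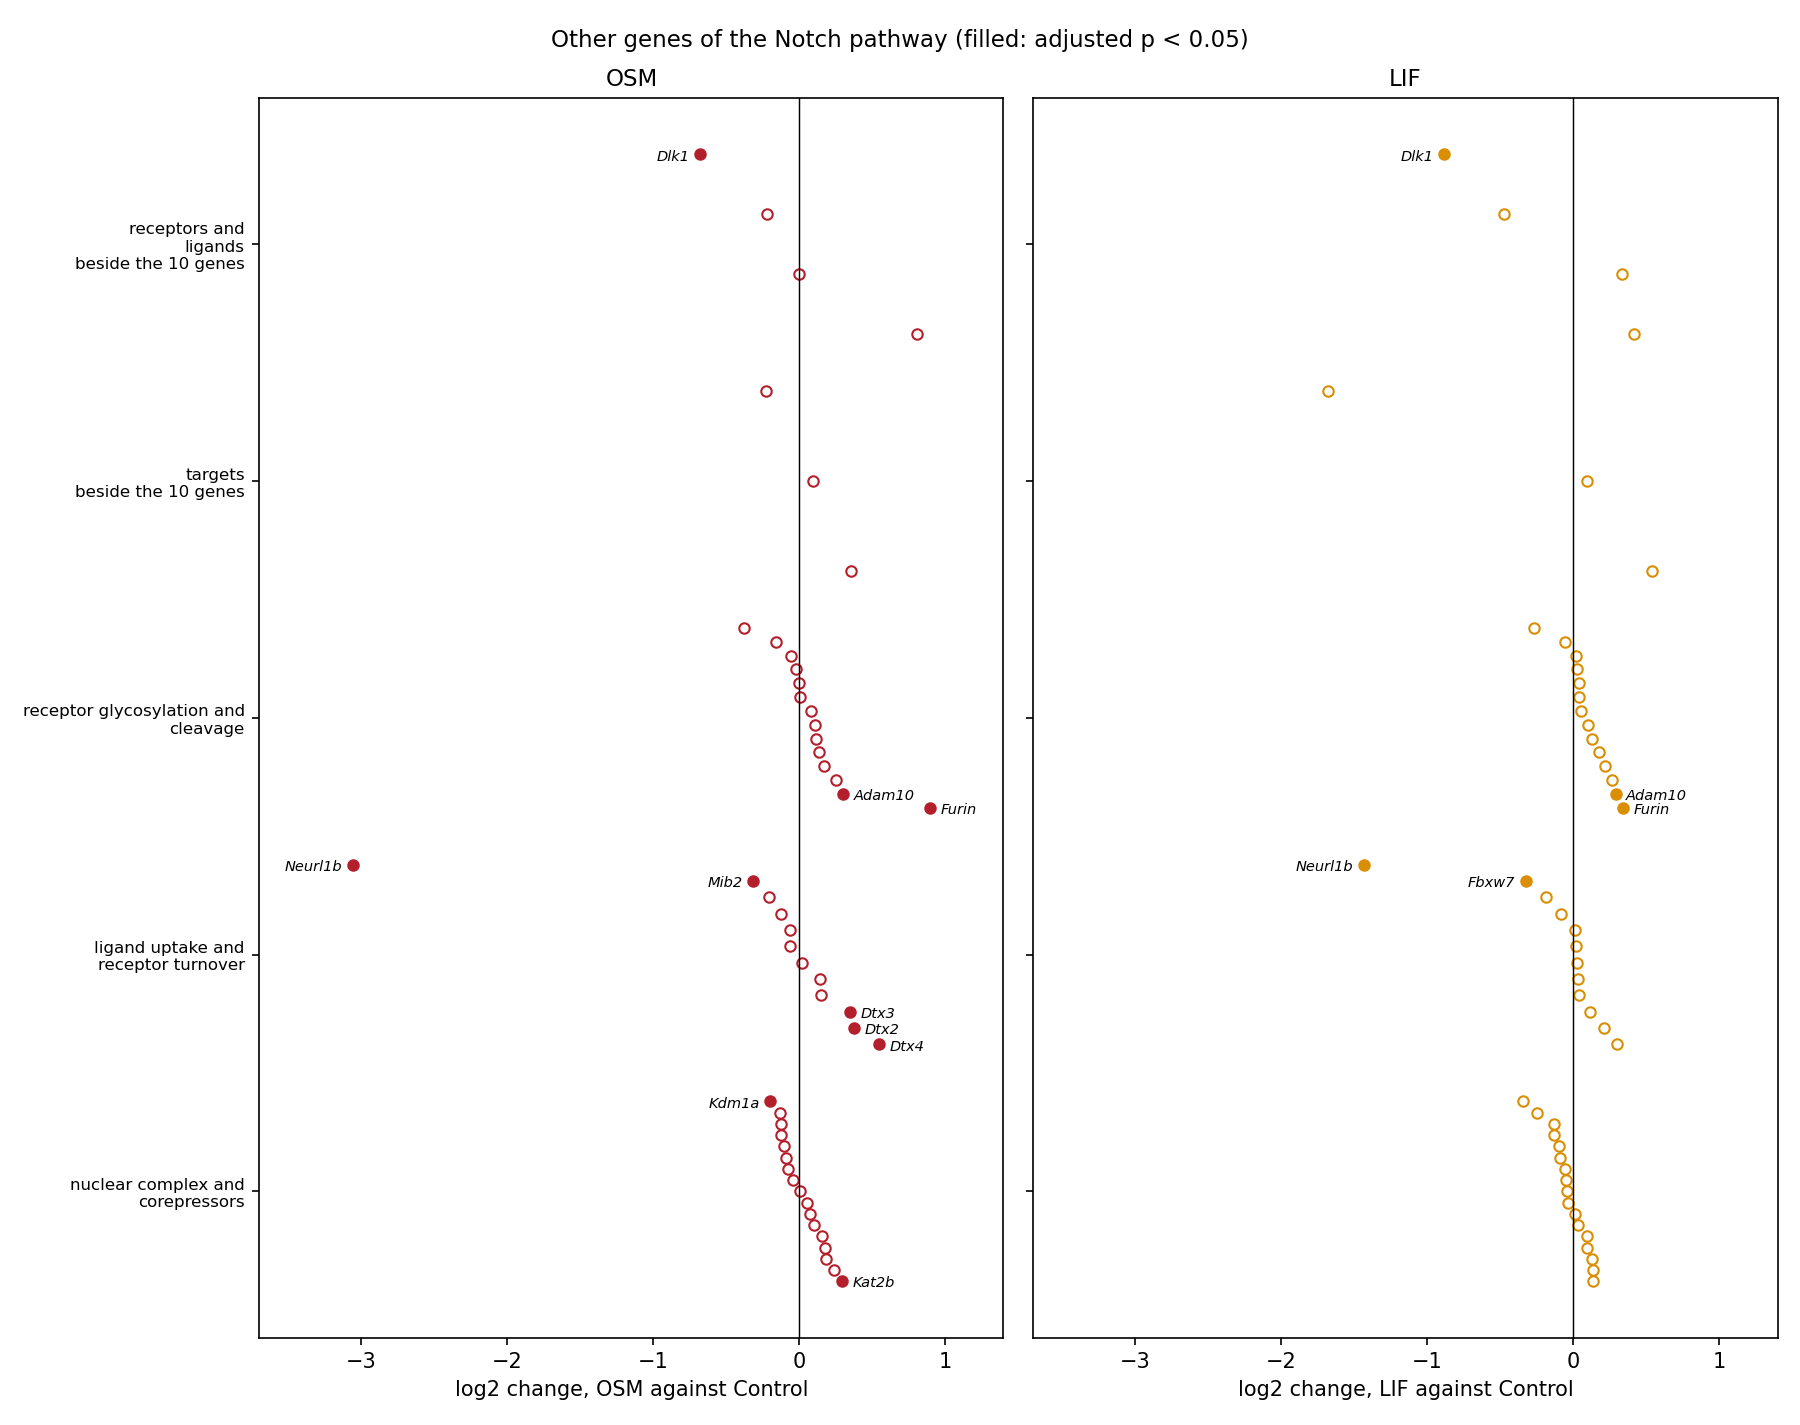
Log2 difference from Control (x axis) of the 50 tested pathway genes beside the 10, with OSM (left) and LIF (right), grouped by role (y axis), with filled points for an adjusted p under 0.05. With OSM 10 points are filled, from Neurl1b at -3.06 to Furin at 0.90, and with LIF 5.

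Between OSM and LIF 7 of the 50 were called, 4 higher and 3 lower with OSM (14% against 8.04% of all genes). Among them was Nrarp, a Notch target that inhibits the pathway, named, as is Hes7, after its values were seen. Nrarp was at 3.57 and 3.49 CPM in Control, 5.41 and 4.86 CPM with LIF, and 2.91 and 3.12 CPM with OSM. Its log2 difference between OSM and LIF was -0.77 (SE 0.166, adjusted p = 0.0108), and it did not pass without LIF replicate 1 (adjusted p = 0.155), OSM replicate 1 (adjusted p = 0.133) or OSM replicate 2 (adjusted p = 0.0674). The antisense gene Gm38287 overlaps 79.4% of the Nrarp exon bases, so its reads are uncertain. Of the 3 tested targets, Hes7, a repressor of the Hes family, was also called, in the opposite direction (log2 difference 1.77, adjusted p = 0.0470), from only 4 to 16 counts per library. Its counts were 16 and 13 in Control, 14 and 10 with IL6, 4 and 5 with LIF, and 16 and 15 with OSM. The OSM libraries overlapped Control in Hes7, and the LIF libraries were the lowest. The Hes7 call was lost without any 1 library of Control, LIF or OSM (adjusted p up to 0.331). OSM against IL6 called 7 of the 50, 5 higher and 2 lower (14% against 15.5% of all genes), and LIF against IL6 2, 1 in each direction (4% against 2.78%). The OSM and LIF count was lower without any 1 of the LIF and OSM libraries, and the OSM and IL6 count without either OSM library. The LIF and IL6 count was lower without IL6 replicate 1 or any 1 of the LIF and OSM libraries. Except without IL6 replicate 1, for which it is not given here, the count over all genes was lower in the same fits.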

How the data were processed

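RNA-seq libraries of 8 samples in 4 groups were made with a stranded mRNA kit, per the labels' protocols. The deposited values are unnormalised read counts per Ensembl gene, 1 file per library. Per the submitters' processing notes, the tools named are FastQC 0.11.9, MultiQC 1.12, Trim Galore 0.6.5, STAR 2.7.3a, HTSeq 0.11.1 and DESeq2 1.34.0, and the build is GRCm39. The annotation release and the strand setting are not given in the sources used here. Summary lines for unassigned reads, 11.7% to 12.7% of the alignments recorded, were left out. Libraries held 29482077 to 30025471 counts, and replicates differed by more than counting error (chi-square per gene 2.97 to 12.0).

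Symbols were taken from GENCODE M21 for 52093 of 53647 identifiers. With edgeR 4.0.16 in R 4.3.3, genes were filtered by filterByExpr (minimum count 10), scaled by TMM and fitted by quasi-likelihood with 1 mean per group over all 8 libraries (4 residual degrees of freedom, biological coefficient of variation 6.42%). P-values were adjusted by Benjamini-Hochberg over the 15603 genes of each contrast, with calls under 0.05. Fold changes are log2 with the SE of the fit. Log2 CPM for likeness used a prior count of 2. Alternatives were DESeq2 1.42.0, other size factors, no filter, 2-group fits, a replicate block, a 1.5-fold minimum and leaving out each library. The fit was tested on simulated data.

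Named were the 10 members, up to 8 other pathway genes called with OSM or LIF by adjusted p in each, and the 3 genes nearest to each of the 3 members with the lowest joint p (a mean of at least 100 counts). Members and lists were chosen with earlier results of these data known. Exon overlaps come from GENCODE M21.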

Additional observations from a re-analysis of the deposited data

How the results depend on the processing

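The calls of Jag1 with OSM against Control, LIF and IL6 kept their direction and passed in all 14 alternatives, and the log2 change against Control ran from -1.54 to -0.97. Notch2 with OSM against Control kept its direction in all 14 and was not called only where 1.5-fold was required. Of the 10 genes, requiring 1.5-fold left 1 called in each of OSM against Control, OSM against LIF and OSM against IL6. Without the filter on low counts 1 was called with LIF against Control (Hey1) and 5 with OSM against IL6 (Notch3 and Hes1 added). The shares of all genes called in these 2 comparisons without the filter are not given here. The replicate numbers were not shown to pair the libraries: deviations of same-numbered libraries correlated from 0.007 to 0.181, over 0.1 in 2 of 6 pairs of groups. A fit with a replicate block called 4 of the 10 genes with OSM against Control, 2 with LIF, 0 with IL6, 2 between OSM and LIF, 5 between OSM and IL6 and 0 between LIF and IL6, beside 25.4%, 10.7%, 0.0577%, 11.3%, 19.2% and 5.29% of all genes in that order. The calls it added were Jag2 with OSM, Notch1 and Hey1 with LIF, and Notch3 and Hes1 between OSM and IL6. Leaving out each library in turn changed how many of the 10 were called in every comparison, and the counts over all genes changed as well. Signs changed for uncalled values near 0: Notch3 with OSM ran from -0.021 to 0.067, Jag1 with LIF from -0.153 to 0.022 and Jag1 with IL6 from -0.125 to 0.047. For the other pathway genes, leaving out a library gave 4 to 11 called with OSM, 0 to 6 with LIF, 1 to 9 between OSM and LIF, 3 to 9 between OSM and IL6 and 0 to 3 between LIF and IL6. Requiring 1.5-fold gave 3, 2, 3, 2 and 1 in the same order, DESeq2 gave 4 between OSM and LIF, and the 2-group fit gave 1 between LIF and IL6. Leaving out a library reduces the samples, and for the other settings the cause was not tested. Over all genes, 1383 were called with OSM, 436 with LIF, 549 between OSM and LIF, 994 between OSM and IL6 and 173 between LIF and IL6 where 1.5-fold was required, and 0 to 221 with IL6 across alternatives. Leaving out a library gave 1622 to 4067 with OSM, 316 to 1688 with LIF, 437 to 1764 between OSM and LIF, 1105 to 2713 between OSM and IL6 and 82 to 739 between LIF and IL6, the lowest without OSM replicate 1, LIF replicate 2, LIF replicate 1, OSM replicate 1 and LIF replicate 1 in that order. The 2-group fit gave 2928 between OSM and LIF, and no filter gave 985 and the block 826 between LIF and IL6. Heyl, at 14 to 41 counts, is limited by counting error.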
